A study of Mus musculus with 4 samples.

Results

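Of the 21779 protein-coding genes in a RefSeq gene table of mouse build GRCm38.p6, 37 were taken here as the aminoacyl-tRNA synthetase genes. They were chosen by symbol alone: a single capital letter followed by ars, ars1 or ars2, and in addition Eprs, Ears2, Farsa, Farsb and Fars2. The enzymes of 20 of these genes work in the cytoplasm and those of 17 in mitochondria. Gars and Kars, counted here as cytoplasmic, each make the mitochondrial enzyme too. No measured value enters the rule, although it was written with earlier results of these data known.

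The study mapped where in the genome PPP2CA lies in haematopoietic stem cells taken from bone marrow of mice wild-type for Ppp2ca. PPP2CA is the subunit of protein phosphatase 2A (PP2A) that carries out catalysis. The assay was CUT&Tag, in which a transposase guided by an antibody cuts and tags the DNA close to the bound protein. One group had an antibody to PPP2CA (libraries PPP2CA 1 and PPP2CA 2) and the other control immunoglobulin G (libraries IgG 1 and IgG 2). Each preparation used 100000 cells, and there was no second genotype, treatment or time, while the labels used here give neither age nor sort markers. The PPP2CA lists held 16811 and 17686 peaks and the IgG lists 561 and 310. The background per position in the PPP2CA libraries was 9.34 to 9.61 times that of the IgG libraries, which are of lower depth. Nothing in the labels tells whether the libraries within each group are from different animals. With 2 libraries against 2, an exact two-sided permutation test has 1 in 3 as its smallest p, so values are given per library.

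Aminoacyl-tRNA synthetases join each amino acid to its own tRNA, the step that sets which amino acid a codon stands for. Mitochondria translate their few messages with a set of synthetases of their own, which nuclear genes encode and the organelle imports. In the cytoplasm several synthetases sit together in the multisynthetase complex, held by the scaffold proteins AIMP1, AIMP2 and EEF1E1. When tRNA stays uncharged, the kinase GCN2 (gene Eif2ak4) phosphorylates the initiation factor eIF2, translation of the factor ATF4 rises, and ATF4 acts at genes of amino acid supply, many cytoplasmic synthetase genes among them. PP2A removes phosphates from serine and threonine in many pathways, and its catalytic subunit has no known DNA-binding domain of its own.

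Where a start site was known, most of the peaks described here lay near it. The promoters below show the DNA at the start sites of the best ranked synthetase genes. They are the 3 best ranked cytoplasmic genes (Qars, Yars and Mars1) and the 3 best ranked mitochondrial genes (Fars2, Wars2 and Nars2) with a RefSeq entry, and Eprs and Tars2, which lacked a peak near either gene boundary in all libraries. Each runs 5′ to 3′ along the gene, from 250 bases before the start site to 50 after it, in build GRCm38.p6, from RefSeq. Capitals mark the letters of the motifs searched, which are spelled out with the promoter results. The rank of Qars comes from a taller peak past the end of that gene, not from the peak at the promoter shown. The entries lie at chr9:108507755-108508054 (Qars, plus strand), chr4:129189653-129189952 (Yars, plus strand), chr10:127311737-127312036 (Mars1, minus strand), chr13:36117393-36117692 (Fars2, plus strand), chr3:99140840-99141139 (Wars2, plus strand), chr7:96951277-96951576 (Nars2, plus strand), chr1:185362794-185363093 (Eprs, plus strand) and chr3:95754928-95755227 (Tars2, minus strand).
Qars: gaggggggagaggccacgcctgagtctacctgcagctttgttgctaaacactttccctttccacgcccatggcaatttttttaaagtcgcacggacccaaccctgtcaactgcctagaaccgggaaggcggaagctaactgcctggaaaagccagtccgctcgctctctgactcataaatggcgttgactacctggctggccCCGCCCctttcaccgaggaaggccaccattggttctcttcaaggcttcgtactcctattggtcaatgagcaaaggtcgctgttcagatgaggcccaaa
Yars: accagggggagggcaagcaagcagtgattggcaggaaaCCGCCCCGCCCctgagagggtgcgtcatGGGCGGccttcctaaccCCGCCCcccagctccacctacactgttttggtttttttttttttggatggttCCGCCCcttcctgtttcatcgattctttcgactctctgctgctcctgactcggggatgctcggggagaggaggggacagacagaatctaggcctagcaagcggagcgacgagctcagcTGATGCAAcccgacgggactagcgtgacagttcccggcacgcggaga
Mars1: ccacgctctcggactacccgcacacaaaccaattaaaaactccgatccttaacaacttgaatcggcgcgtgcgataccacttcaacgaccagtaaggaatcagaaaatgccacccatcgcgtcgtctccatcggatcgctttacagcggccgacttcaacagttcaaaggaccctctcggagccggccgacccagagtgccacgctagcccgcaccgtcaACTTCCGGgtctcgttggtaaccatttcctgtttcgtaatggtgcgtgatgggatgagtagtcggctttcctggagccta
Fars2: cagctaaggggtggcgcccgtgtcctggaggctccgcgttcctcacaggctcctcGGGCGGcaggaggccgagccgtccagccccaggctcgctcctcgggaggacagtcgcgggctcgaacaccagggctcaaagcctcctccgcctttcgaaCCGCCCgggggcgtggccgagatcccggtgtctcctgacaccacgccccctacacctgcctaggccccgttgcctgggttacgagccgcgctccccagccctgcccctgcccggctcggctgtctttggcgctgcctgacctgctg
Wars2: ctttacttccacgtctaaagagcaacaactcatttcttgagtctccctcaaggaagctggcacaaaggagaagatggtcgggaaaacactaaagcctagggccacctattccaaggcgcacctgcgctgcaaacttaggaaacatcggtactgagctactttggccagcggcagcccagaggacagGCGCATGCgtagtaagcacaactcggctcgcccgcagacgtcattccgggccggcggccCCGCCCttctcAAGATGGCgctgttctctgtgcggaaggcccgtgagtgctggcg
Nars2: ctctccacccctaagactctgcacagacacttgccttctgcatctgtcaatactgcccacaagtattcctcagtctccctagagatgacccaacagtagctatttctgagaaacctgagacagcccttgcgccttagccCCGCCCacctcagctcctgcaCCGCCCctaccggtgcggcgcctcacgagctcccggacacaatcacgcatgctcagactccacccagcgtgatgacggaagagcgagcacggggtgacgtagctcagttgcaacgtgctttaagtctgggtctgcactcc
Eprs: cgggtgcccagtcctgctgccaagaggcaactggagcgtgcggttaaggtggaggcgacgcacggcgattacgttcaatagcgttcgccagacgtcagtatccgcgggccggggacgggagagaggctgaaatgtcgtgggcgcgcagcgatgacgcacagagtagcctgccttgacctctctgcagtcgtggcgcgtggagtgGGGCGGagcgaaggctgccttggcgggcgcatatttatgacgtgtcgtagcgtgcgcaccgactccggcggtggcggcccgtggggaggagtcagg
Tars2: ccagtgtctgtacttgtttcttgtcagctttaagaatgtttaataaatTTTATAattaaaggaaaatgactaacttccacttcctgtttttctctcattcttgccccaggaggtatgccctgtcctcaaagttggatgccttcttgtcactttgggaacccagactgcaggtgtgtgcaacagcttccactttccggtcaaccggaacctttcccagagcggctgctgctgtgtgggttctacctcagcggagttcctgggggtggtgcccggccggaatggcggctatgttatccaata

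A peak was assigned to a gene when it overlapped the 1 kb on each side of either gene boundary. PPP2CA 1 had such a peak at 34 of the 37 synthetase genes, where 43.8% of all protein-coding genes had one. PPP2CA 2 had one at 33 of 37, against 44.4% of all genes. IgG 1 and IgG 2 had a peak at 0 of 37, beside 0.606% and 0.22% of all genes. A region here means overlapping peaks found in both PPP2CA libraries without a peak of either IgG library, and a gene with a region in its window is called marked. Marked were 32 of the 37 synthetase genes (86.5%), beside 39.5% of all protein-coding genes. The share was above that of all genes in both classes: 18 of the 20 cytoplasmic genes (90.0%) and 14 of the 17 mitochondrial genes (82.4%) were marked. Leaving out Gars and Kars, 16 of the 18 enzymes that work in the cytoplasm alone were marked. The structural classes were alike in this count, with 17 of 18 genes of class I and 15 of 18 of class II marked. Eprs, which joins an enzyme of each class, was counted in neither. Of the multisynthetase complex, 7 of 8 genes were marked, and of the cytoplasmic genes outside it 11 of 12.

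**Figure D1:**
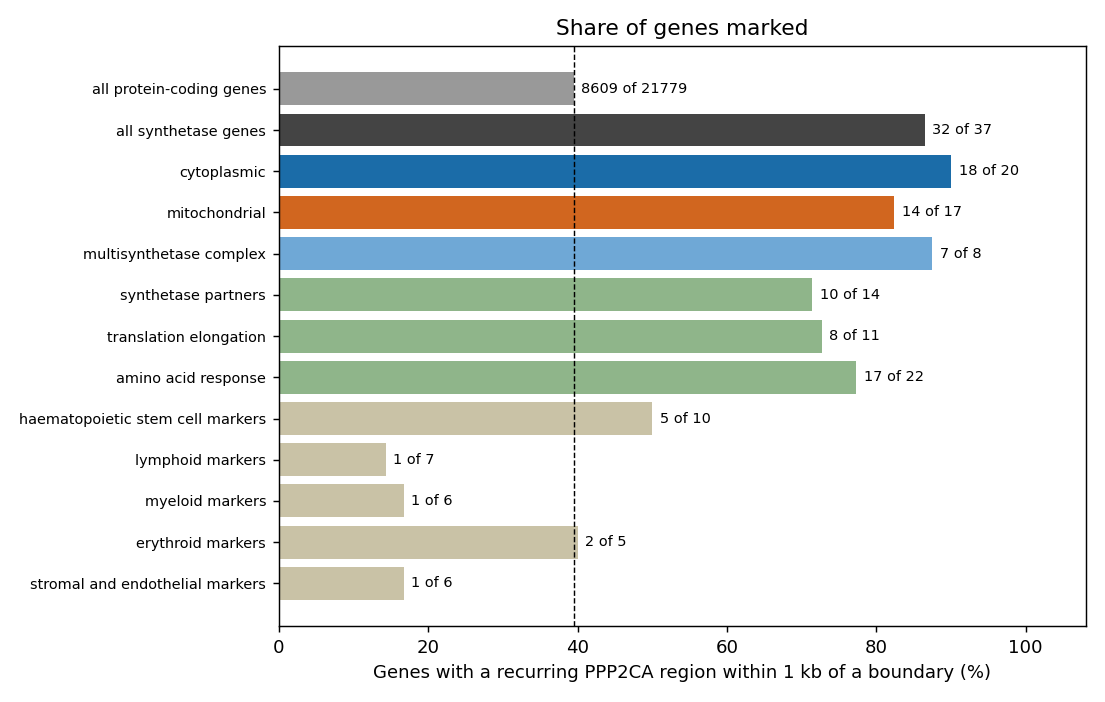
Share of genes with a region within 1 kb of a gene boundary, for all protein-coding genes, the synthetase genes and their subdivisions, related gene lists and cell type markers; the dashed line is the share over all protein-coding genes. The synthetase bars stand at 82.4% to 90.0%, against 39.5% for all genes.

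The peaks at marked synthetase genes were of about the same height as those at other marked genes. The fold, the authors' value for each peak, is the height of its summit over the local background of the same library. The number of fragments at each summit was recovered from the authors' values. It is summed over all cells of a preparation, so more cells with a fragment and more fragments per cell cannot be told apart. Over the 32 marked synthetase genes the median fold was 7.16 in PPP2CA 1 and 7.24 in PPP2CA 2, beside 7.09 and 7.04 over all marked genes. The median summit held 28.0 and 29.5 fragments, beside 29.0 and 32.0. Fold at single synthetase genes ran from 3.80 to 12.0 in PPP2CA 1 and from 3.45 to 14.0 in PPP2CA 2, and summits from 10 to 154 and from 10 to 187 fragments. By class, the median fold was 7.01 and 7.24 at cytoplasmic genes and 7.24 and 7.08 at mitochondrial genes. Which class stood higher thus differed between the libraries. The tallest summits were assigned to cytoplasmic genes, since the highest mitochondrial summit held 60 fragments in PPP2CA 1 and 63 in PPP2CA 2. Counting peaks of at least 20 fragments in both libraries, 20 of 37 genes were marked (10 cytoplasmic and 10 mitochondrial), beside 26.5% of all genes.

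Among the genes of the multisynthetase complex, Qars, which encodes the glutaminyl-tRNA synthetase, had the best ranked boundary peak. Peaks were ranked within each library by −log10 q, with rank 1 the best, and a gene has the worse of its ranks in PPP2CA 1 and PPP2CA 2. The Qars summit held 154 and 187 fragments (fold 9.29 and 8.66), at rank 405. That region, chr9:108516543-108518197, lay past the end of Qars and also touched the window of Qrich1. Its summit was 1360 and 1362 bp past the gene boundary, so only the edge of the peak reached the 1 kb window of Qars. The region over the start site of Qars was lower, with 38 and 43 fragments and a fold of 6.91 and 5.76. Mars1, the methionyl-tRNA synthetase, had 48 and 62 fragments in a region of 1498 bp at its start (fold 6.67 and 7.47). Dars, the aspartyl-tRNA synthetase, had fewer fragments than Mars1, 42 and 37, but a higher fold of 11.4 and 8.81 over a lower local background. At Iars, Kars, Rars and Lars, the isoleucyl-, lysyl-, arginyl- and leucyl-tRNA synthetases, summits held 10 to 16 fragments in PPP2CA 1 and 13 to 21 in PPP2CA 2. The complex was therefore assigned both the tallest summit of all synthetase genes, the one past the end of Qars, and some of the lowest.

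Outside the complex, Vars, the valyl-tRNA synthetase, ranked next with 140 and 174 fragments and a fold of 6.76 and 7.09. Its region was broad, 2027 bp at chr17:34999727-35001753, and touched the window of a neighbouring protein-coding gene. Yars, the tyrosyl-tRNA synthetase, had 61 and 75 fragments (fold 8.67 and 9.19) in a region shared with S100pbp. Nars, the asparaginyl-tRNA synthetase, had 35 and 45 (fold 8.53 and 9.53). These 3 genes were above the median of all marked genes in fragments in both libraries. Farsb, which encodes the beta subunit of the cytoplasmic phenylalanyl-tRNA synthetase, had 28 and 37 fragments. Farsa encodes the alpha subunit of the same enzyme and was not marked. Cars, Sars, Tars and Wars, for cysteine, serine, threonine and tryptophan, held 15 to 31 fragments in PPP2CA 1 and 14 to 27 in PPP2CA 2. Gars, the glycyl-tRNA synthetase, had the lowest ranked region of the cytoplasmic class, with 12 and 10 fragments, a fold of 4.90 and 5.07 and rank 12402.

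Of the mitochondrial enzymes, Fars2, the phenylalanyl-tRNA synthetase, had the best ranked peak, with 47 and 56 fragments and a fold of 12.0 and 14.0. Those were the highest folds of any marked synthetase gene in either library. Its region, chr13:36117242-36118035, touched the window of Lyrm4, which encodes a factor of iron-sulfur cluster assembly. Wars2, the tryptophanyl-tRNA synthetase, had 32 and 31 fragments (fold 11.6 and 10.7). Nars2, for asparagine, had 33 and 34 (fold 9.49 in each library). Ears2, for glutamate, had 42 and 32 (fold 9.74 and 7.74). The local background was 1.85 fragments at the Wars2 summit of PPP2CA 1, so few fragments gave a high fold there. Yars2, for tyrosine, had 33 and 31 fragments (fold 8.85 and 7.92). Cars2, the cysteinyl-tRNA synthetase, showed the reverse, with the tallest mitochondrial summits, 60 and 63 fragments, and the lowest fold of the marked synthetase genes, 3.80 and 3.45, over a local background of 15.0 and 17.6 fragments. Iars2, Lars2 and Mars2, for isoleucine, leucine and methionine, held 17 to 19 fragments in PPP2CA 1 and 14 to 19 in PPP2CA 2. Pars2, the prolyl-tRNA synthetase, had the lowest ranked region of its class, with 11 and 10 fragments, a fold of 4.97 and 5.31 and rank 11947.

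**Figure D2:**
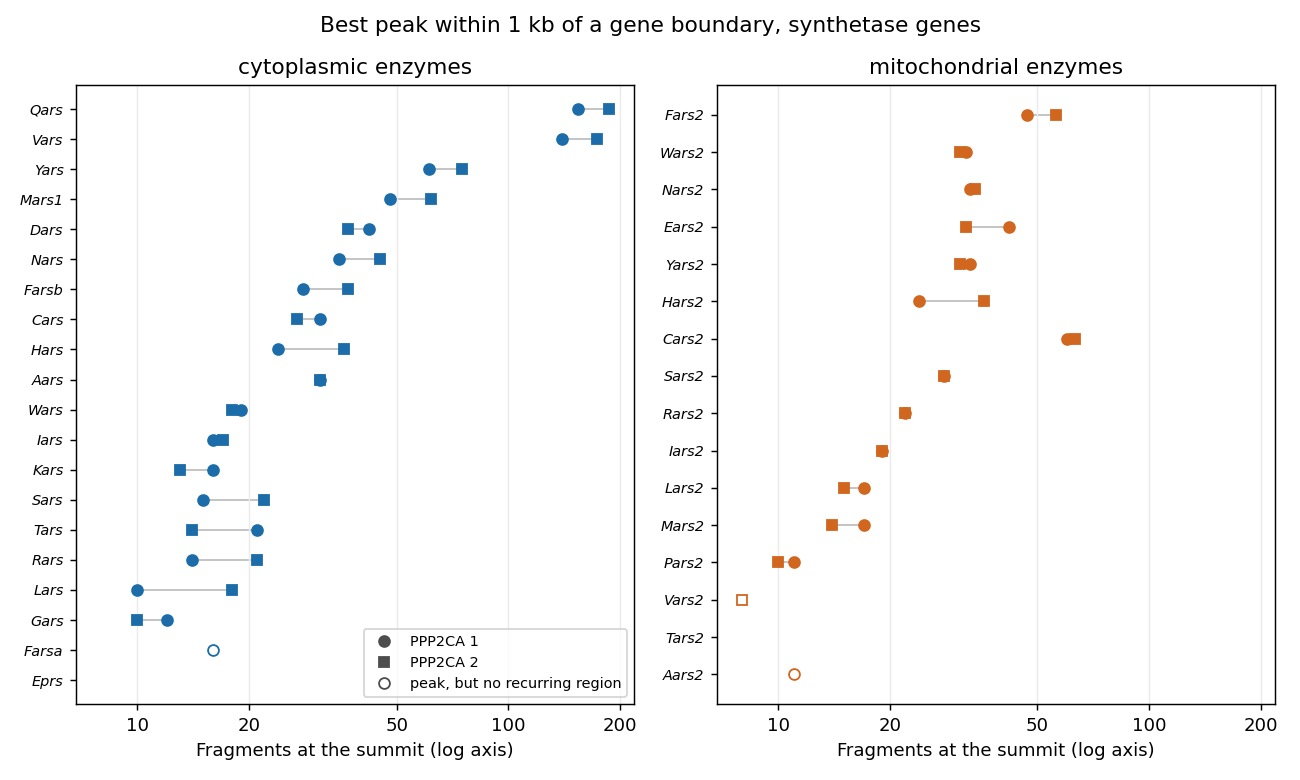
Fragments at the summit of the best peak within 1 kb of a gene boundary (log axis) for the synthetase genes, 1 mitochondrial gene not drawn, cytoplasmic on the left and mitochondrial on the right, ordered from the best ranked at the top; circles are PPP2CA 1, squares PPP2CA 2, and open symbols are peaks of 1 library without a region. Qars and Vars stand apart at 140 to 187 fragments, and Eprs and Tars2 have no symbol because their peaks lay more than 1 kb inside the gene boundary.

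The genes left unmarked were Eprs, Farsa, Aars2, Tars2 and Vars2, and for 3 of them the boundary rule had missed a region at the start site. The outermost boundary of a gene entry can lie far from the start site of the promoter entry. At Eprs, the glutamyl-prolyl-tRNA synthetase, a region 1283 bp inside the boundary held 109 and 112 fragments, with a fold of 11.1 and 11.2 and ranks 631 and 668. By rank it would stand between Qars and Vars. At Tars2, the mitochondrial threonyl-tRNA synthetase, the region lay 1310 bp inside and held 17 and 19 fragments (fold 5.73 and 6.36). At Aars2, the mitochondrial alanyl-tRNA synthetase, it lay 3303 bp inside and held 22 and 20 (fold 6.83 and 5.67), while a boundary peak of 11 fragments occurred in PPP2CA 1 only. Aars, the cytoplasmic alanyl-tRNA synthetase, had a region of 21 and 30 fragments at its start site, 5900 bp inside the boundary. It was counted as marked only through a region of 31 and 31 fragments past its end, shared with Exosc6. Farsa and Vars2 had a peak at the start site in 1 library each. The Farsa peak held 16 fragments in PPP2CA 1 (fold 4.61), and the Vars2 peak, at the mitochondrial valyl-tRNA synthetase, held 8 in PPP2CA 2 (fold 3.62).

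Measured from the start site, a choice of place made after these regions had been seen, 25 of the 27 synthetase genes with a promoter entry were marked, 12 of 13 cytoplasmic and 13 of 14 mitochondrial. Of all 17492 protein-coding genes with an entry, 41.5% were marked by that rule. With a region at either a boundary or the start site, 35 of the 37 genes were marked, beside 42.1% of all genes, and Farsa and Vars2 were the exceptions. These 25 genes were chosen for a region within 1 kb of the start site, so summits near it follow in large part from that choice. All 50 summits of those regions, 1 per gene and library, lay between 448 bp before and 450 bp after the start site. Their median was 71.5 bp into the gene. Other peaks of these genes, such as the one past the end of Qars, are not among them, and the distances were not measured over all genes. Of these summits 34 lay downstream of the start site and 16 upstream. The Fars2 summit lay 2 bp from the start site in both libraries and the Eprs summit 99 bp. At Mars1 the tallest point moved from 187 bp downstream in PPP2CA 1 to 448 bp upstream in PPP2CA 2, while both peaks spanned nearly the same interval. The 33 regions at synthetase gene boundaries had a median width of 929 bp, beside 1004 bp for regions at all marked genes.

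**Figure D3:**
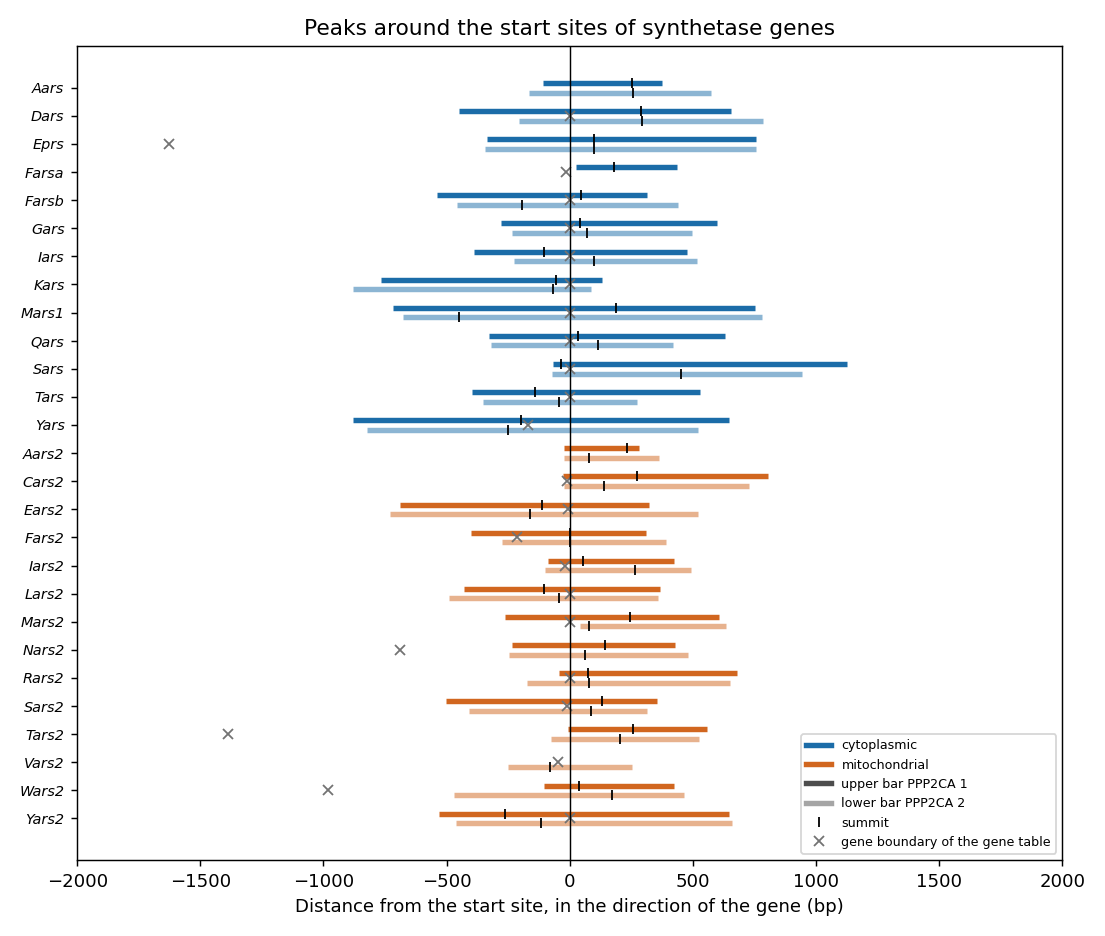
Peaks of PPP2CA 1 (upper bar) and PPP2CA 2 (lower, paler bar) around the start site of the 27 synthetase genes with a promoter entry, in bp along the direction of the gene; ticks are summits and crosses gene boundaries, those of Aars and Aars2 lying outside the range drawn. The bars of 25 genes cover or adjoin the start site in both libraries, and Farsa and Vars2 have a bar from 1 library only.

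Many of the regions could not be given to a synthetase gene alone. At 13 of the 32 marked genes (40.6%) every region also touched the window of another protein-coding gene, as it did at 31.4% of all marked genes. These were Aars, Hars, Kars, Vars, Wars and Yars of the cytoplasmic class and, among others, Ears2, Fars2, Hars2, Iars2, Rars2 and Sars2 of the mitochondrial class. Hars and Hars2, the cytoplasmic and mitochondrial histidyl-tRNA synthetases, overlap at a boundary and share 1 region of 24 and 36 fragments, which counts for both. The other neighbours were not synthetase genes. Sars2 shared its region, with 28 and 28 fragments, with the mitochondrial ribosomal protein gene Mrps12. Rars2 shared one of 22 and 22 fragments with Orc3, of the origin recognition complex. Kars shared one of 16 and 13 with Terf2ip, of the telomere protein complex. Counting only regions that touched no other protein-coding gene, 19 synthetase genes were marked (12 of 20 cytoplasmic and 7 of 17 mitochondrial), beside 27.1% of all genes.

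For 14 amino acids the gene table held a cytoplasmic and a mitochondrial gene of the same letter, and in 11 of these pairs both were marked. The cytoplasmic gene had the higher fold in both libraries in 4 pairs, among them Cars over Cars2, Iars over Iars2 and Mars1 over Mars2. The mitochondrial gene had it in 2 pairs, Rars2 over Rars and Wars2 over Wars. In 4 pairs, those of Lars, Nars, Sars and Yars, the order differed between the libraries, and the Hars pair had the same peak. Taken as a ratio, the fold differed most at Cars, with 7.35 and 7.18 against 3.80 and 3.45 at Cars2. Next by this ratio was Wars, with 6.90 and 6.58 against 11.6 and 10.7 at Wars2. In fragments the Cars pair ran the other way, with 31 and 27 at Cars against 60 and 63 at Cars2. The Wars pair kept its order, with 19 and 18 against 32 and 31. No direction was common to the pairs.

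**Figure D4:**
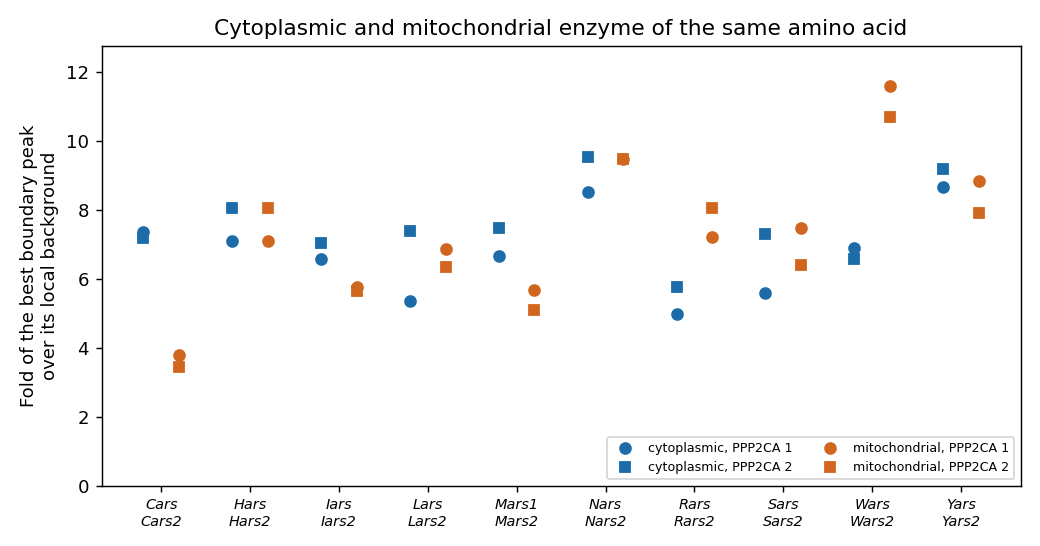
Fold over local background of the best boundary peak for pairs of cytoplasmic (blue) and mitochondrial (orange) genes with both marked, 1 of the 11 not drawn; circles are PPP2CA 1 and squares PPP2CA 2. Cars2 lies below Cars and Wars2 above Wars in both libraries, while the symbols of the Lars, Nars, Sars and Yars pairs interleave.

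At the summits that could be paired, no difference between the PPP2CA libraries passed the test. Summits of PPP2CA 1 and PPP2CA 2 within 100 bp of each other were compared by a two-sided exact binomial test of their fragments, scaled by the median ratio of 1.08, with Benjamini-Hochberg adjustment over all 6930 such pairs. At the synthetase genes there were 21 boundary pairs at 19 of the 32 marked genes, and the other marked genes, Mars1 and Sars among them, had summits farther apart and were not compared. Of the 21 pairs, 0 differed at an adjusted p under 0.05, nor did any at an unadjusted p under 0.05. Over all pairs 0.0144% differed after adjustment, 1 of 6930, and 163 (2.35%) before it. The fragments of PPP2CA 2 over PPP2CA 1 ran from 0.667 at Tars, the threonyl-tRNA synthetase (21 and 14 fragments, 95% exact interval 0.314 to 1.37), to 1.8 at Lars (10 and 18 fragments, interval 0.788 to 4.36). At the taller Qars summit the ratio was 1.21, with an interval of 0.976 to 1.51. The low summits thus leave room for differences of more than 2-fold, and the intervals cover counting error only, since PCR copies are not independent molecules. Over the 32 marked genes, the Spearman correlation of the fragments between the libraries was 0.897. This is a description across genes, of which Hars and Hars2 have the same peak. Values are given for each library, with no mean or SD.

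The IgG libraries were too shallow to show a site at many of these genes. Scaled down by the background ratio of 9.61, the lower of the PPP2CA summits would stand at 16.0 fragments at Qars, 14.6 at Vars and 6.35 at Yars. The lowest summit in the IgG lists held 3 fragments. At 13 of the 32 marked synthetase genes the scaled summit would reach 3 fragments or more, and at 19 it would not. Gars, Lars and Pars2 were the lowest, at 1.04 scaled fragments. At those 19 genes the absence of an IgG peak is therefore no measurement of a difference between the antibodies. At the other 13, reaching 3 fragments does not mean that a peak would have been called. The median summit held 4.0 fragments in each IgG list.

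The promoters of synthetase genes were rich in CpG dinucleotides, as were those of genes with a region at the start site in general. CpG observed over expected is the number of CpG over that given by the C and G content of the 300 bases. Its median was 0.739 at the 27 synthetase genes, 0.712 at the cytoplasmic and 0.770 at the mitochondrial ones, beside 0.565 at all promoters and 0.806 at all genes with a region at the start. The share of all genes with such a region rose with this ratio, from 5.49% in the lowest quartile of promoters to 22.8%, 61.7% and 75.9% in the following ones. Of the synthetase genes 0 were in the lowest quartile. Regions were present at 3 of 3 in the next, 14 of 14 in the one above, and 8 of 10 in the highest. Farsa and Vars2, the genes without a region, had ratios of 0.872 and 1.16 and so were not poor in CpG. Tars2 had the lowest ratio of all, 0.400, and did have a region. The part of CpG content in the count of marked genes was not tested.

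**Figure D5:**
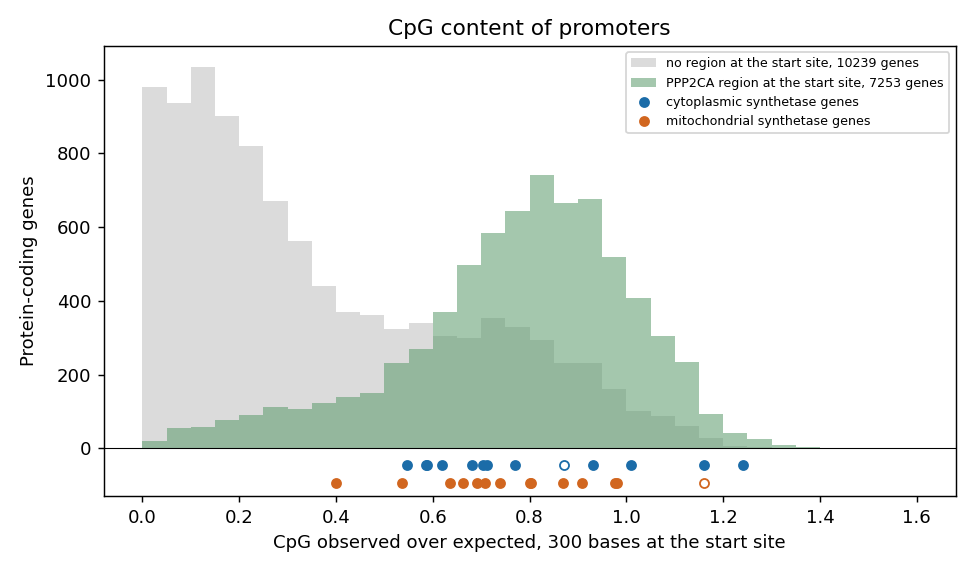
Number of protein-coding genes by CpG observed over expected in the 300 bases at the start site, for genes with (green) and without (grey) a region there; dots below the axis are synthetase genes, cytoplasmic in blue and mitochondrial in orange, open for Farsa and Vars2. The synthetase dots run from 0.400 to 1.24 and lie mostly under the green distribution.

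Both strands of each promoter were searched for fixed letters, and a match is a description of the sequence only. The SP motif GGGCGG was in 19 of the 27 synthetase promoters, beside 45.9% of all promoters and 69.5% of those with a region at the start site, so the synthetase share of 70.4% was near the latter. The E-box CACGTG was in 5 (4 cytoplasmic and 1 mitochondrial), beside 7.75% and 10.8%. The YY1 motif AAGATGGC was in 4 (1 cytoplasmic and 3 mitochondrial), beside 3.22% and 5.42%, and the ETS motif CCGGAAGT in 3, beside 5.19% and 9.64%. TATAAA was in 3 (11.1%), below the 13.3% of all promoters and above the 5.94% of those with a region. The NRF1 motif GCATGCGC, of a factor known for nuclear genes of mitochondria, was in the promoters of 3 mitochondrial enzymes, Rars2, Vars2 and Wars2, and of 0 cytoplasmic ones, beside 3.57% of all promoters and 6.22% of those with a region. In the promoters printed, Wars2 holds the NRF1, SP and YY1 letters together, from 64 bases before to 6 after the start site, and the Mars1 promoter an ETS match 30 bases before it.

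The core of the amino acid response element, TGATGNAA, followed the classes the other way. It was in 5 of the 13 cytoplasmic promoters (38.5%) and in 0 of the 14 mitochondrial ones, beside 3.71% of all promoters and 1.61% of those with a region at the start site. The longer form TGATGCAAT, which contains the core, was in 2 of the 27, Iars among them, beside 0.194% of all promoters. The match nearest the start site of each gene is shown because such matches were found in 1 class alone, and they were picked after their presence was seen. Each window of 30 bases is read along the strand of the motif, with the core in capitals, from RefSeq in build GRCm38.p6. They lie at chr8:111033840-111033869 (Aars), chr6:55037960-55037989 (Gars), chr13:49682126-49682155 (Iars), chr15:11399655-11399684 (Tars) and chr4:129189895-129189924 (Yars). On the genes themselves the matches shown read on the opposite strand except at Yars, and each begins at most 30 bases from the start site.
Aars: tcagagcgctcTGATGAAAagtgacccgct
Gars: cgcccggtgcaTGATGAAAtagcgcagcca
Iars: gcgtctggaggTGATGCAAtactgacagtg
Tars: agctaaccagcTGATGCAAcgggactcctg
Yars: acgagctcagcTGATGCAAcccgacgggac

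All 5 genes with the core had a region at the start site, and except at Yars their summits were not tall. Fragments at the start site region were 21 and 30 at Aars, 12 and 10 at Gars, 16 and 17 at Iars, 21 and 14 at Tars and 61 and 75 at Yars. Apart from Yars, these lay below the medians of 29.0 and 32.0 fragments of the boundary peaks at all marked genes.

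Genes around the synthetases in the pathway were marked in part. Of 14 partners in the complex and in tRNA charging, 10 were marked, beside 39.5% of all genes. The best ranked were Gatc, a subunit of the mitochondrial amidotransferase that makes glutaminyl-tRNA, with 42 and 39 fragments, the synthetase-like gene Tarsl2 with 31 and 31, and the scaffold gene Eef1e1 with 35 and 25. The other scaffold genes were marked as well, Aimp1 with 19 and 20 fragments and Aimp2 with 23 and 22. Of 11 elongation factor genes, 8 were marked, led by Eef1a1, whose product brings charged tRNA to the ribosome, with 150 and 179 fragments, then Eef1d with 112 and 130 and Eef2 with 81 and 96. The tall summit at Eef1d coincided with an IgG 1 peak of 6 fragments, and that gene was counted through another region.

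Of 22 genes of the amino acid response, 17 were marked, beside 39.5% of all genes. Ddit3, a transcription factor gene induced by ATF4, held 367 and 377 fragments, more than the boundary summit of any synthetase gene, at a peak that also lay at the boundary of Mbd6. Slc3a2, the heavy chain of an amino acid transporter, held 134 and 158, and Ppp1r15a, a subunit that directs protein phosphatase 1 to eIF2, 162 and 167. Eif2ak4, the gene of the kinase that senses uncharged tRNA, held 39 and 43. Atf4 held 339 and 410 fragments but was not counted as marked, because IgG 1 had a peak of 7 fragments at the same place. Within 1 kb of a boundary, Asns, the asparagine synthetase gene, and Chac1 had a peak in PPP2CA 1 only, of 10 and 12 fragments. Shmt2 and Slc7a11 had none there. With a region at either a boundary or the start site, 18 of the 22 genes were marked, beside 42.1% of all genes.

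Regions were also counted at marker genes, though a region of a phosphatase antibody does not measure expression. Of 10 haematopoietic stem cell markers, 5 were marked, beside 39.5% of all genes: Tal1, Kit, Mecom, Runx1 and Meis1. Cd34 and Slamf1 had no peak within 1 kb of a boundary, and Gata2, Hlf and Procr had one in a single library. Marked markers of other cells were 1 of 7 for lymphoid cells (Cd3d), 1 of 6 for myeloid (Ngp), 2 of 5 for erythroid (Klf1 and Epor) and 1 of 6 for stromal and endothelial cells (Kdr). The stem cell count and the erythroid count are near the share of all genes, so these counts do not check the label.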

How the data were processed

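The authors deposited 1 narrowPeak list per library. Per the submitters' processing notes, the tools were BWA, Trimmomatic, MACS2, HOMER, deepTools and ChIPseeker, with no version, and the genome GRCm38 or mm10. The sources used here do not tell if IgG was a control for calling. The deposited values of a peak are a fold, which is the ratio of summit height to local background in that library, a −log10 p, a −log10 q and a score, the last not used. The deposited summit offset gives the summit's position. Fold and rank were used only within a list.

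To recover the fragments at a summit, the fold was taken as (fragments + 1) over (background + 1). The p was taken as the upper tail of a Poisson distribution. Only whole numbers of fragments were tried, and the one nearest to the deposited −log10 p was kept. It fitted with a relative error of at most 2e-05 at 100% of peaks in each of the 4 lists. Total reads were not used here. Regions merged PPP2CA peaks sharing at least 1 bp. Of 12631 found in both libraries, 193 had an IgG peak and 12438 were used. A gene's values are those of its best peak by −log10 q within 1 kb of a boundary. Gene entries starting below 3 Mb were left out. Start sites, strand and sequences came from the RefSeq promoter table, with entries for 27 of the 37 genes. Among the genes without an entry were Cars, Hars, Hars2, Lars, Nars, Pars2, Rars, Vars and Wars. Values of 1 gene counted in the totals are not reported here.

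Groups came from sample titles. The members and lists were chosen with earlier results of these data known. Named genes were the 6 best and the lowest ranked marked genes of each class, the genes without a region, and the 3 best of each related list; further genes in the text were picked knowing their values. Of the sequences, those for genes without a peak were taken for genes with no peak within 1 kb of a boundary. Computations used Python 3.11.15, pandas 2.3.3 and scipy 1.17.1 and were tested on simulated data.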

Additional observations from a re-analysis of the deposited data

How the results depend on the processing

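The count of 32 marked synthetase genes (18 cytoplasmic, 14 mitochondrial) stayed within 1.5 times of itself under most settings. These were windows of 500 bp or 2 kb, anywhere in the gene, and both summits in the window. The others were −log10 q of at least 5, reciprocal overlap of 50% and IgG regions kept. Under these settings 30 to 35 of 37 genes were marked, beside 34.8% to 45.3% of all genes. From the start site, over the genes with a promoter entry only, it was 25 of 27, beside 41.5%. The count of 32 moved with at least 20 fragments, to 20 in all and 10 cytoplasmic, beside 26.5% of all genes. With shared regions not counted it moved to 19 in all and 7 mitochondrial, beside 27.1%. Leaving out 1 library at a time gave 32 to 34 in all, 18 to 19 cytoplasmic and 14 to 15 mitochondrial, beside 39.7% to 43.8% of all genes. The median fold of both libraries was 6.98 at cytoplasmic and 7.27 at mitochondrial genes. The mitochondrial median became 6.95 with the window of 500 bp, and 7.58 with that of 2 kb and with −log10 q of at least 5; the genes counted differ between these settings. At synthetase genes, 0 summit pairs differed between the PPP2CA libraries under each pairing distance and scaling tried (exact binomial test). Summits of few fragments limit what that comparison can show. No paired analysis was possible because the results are counts and values per peak list, and none comes from a test between the PPP2CA and IgG groups.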
